A study of Nannochloropsis oceanica with 10 samples.

Results

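The comparison described here is that of the *hlr1* mutant of *Nannochloropsis oceanica* IMET1 after 6 h of high light (HL) with the same mutant after 1 h of HL. Its members are 6 mRNA-Seq libraries, 3 for each time, of 30 libraries in the series. The sample labels give 1 sample for each group, and its 3 libraries are the count columns lettered a, b and c. The counts of the 6 libraries were scaled together, and 9440 of the 10363 genes in the tables held enough counts for a test. WT and *hlr1* were each sampled before HL, at the end of the dark, and at 1, 6, 96 and 144 h of HL. Only the 2 early times in HL are compared here, with the other samplings of *hlr1* given as levels.

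*N. oceanica* is a single-celled heterokont alga. The *hlr1* line came from insertional mutagenesis and is 1 clone, in which a cassette for hygromycin resistance sits in an exon of *g4928*, the gene named *HLR1*. All 6 libraries carry this insertion. Cultures of both groups grew at 50 µmol photons and 25 °C, spent a night in the dark and were then moved to 200 µmol photons for 1 h or 6 h. For the time before that night, the labels give a light/dark cycle and the methods continuous light. No culture stayed dark or under growth light over these hours, so the light itself and the hours since the end of the night cannot be told apart. The design text calls the replicates biologically independent sets of samples. The edgeR p-values and standard errors below rest on the spread between those sets, fitted as a common value per gene for both times. The spread was far wider at 1 h than at 6 h, so this value stands for neither time alone.

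Light-harvesting complex (LHC) proteins bind chlorophyll and carotenoids and pass energy to the photosystems. The LHCR proteins serve photosystem I in algae of the red lineage, and LHCX proteins are known for the quenching of excess light. In the violaxanthin cycle, a de-epoxidase converts violaxanthin to zeaxanthin, which helps to discharge absorbed energy. The Calvin cycle fixes the carbon that the lipid, protein and wall synthesis of a growing cell draws on, and division needs new histones, nucleotides and spindle tubulin.

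Library totals were 4979388 to 6728308 counts at 1 h and 6431560 to 6872637 at 6 h. The 1 h libraries were far less alike than the 6 h libraries. Replicates correlated at r = 0.752 to 0.869 at 1 h and 0.985 to 0.99 at 6 h (log2 CPM across genes, which are not independent of each other). Among 5437 genes with at least 50 CPM at either time, the median SD was 31.6% of the mean at 1 h and 7.43% at 6 h. Libraries a, b and c at 1 h had 8083, 7465 and 9802 genes with a count, against 9895 to 9939 at 6 h. Of 7995 genes that averaged at least 100 counts at 6 h, 9.96, 15.9 and 0.388% stood at 0 in these 1 h libraries and none at 6 h. Replicates of a time differed by more than sampling noise (chi-square per gene 48.7 to 80.2 at 1 h and 3.87 to 8.01 at 6 h), so none was treated as a library deposited again. This does not show that the cultures were separate, which rests on the design text. Of 2 transcripts described as antisense to ribosomal RNA, *g9708* had 98.5, 31.0 and 90.9 CPM at 1 h and 8.84, 11.9 and 12.8 CPM at 6 h and was called lower with edgeR, a call lost without any 1 of the 6 h libraries.

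From 1 h to 6 h of HL, 17 of 30 genes of the Calvin cycle, 8 of 19 of nitrogen assimilation, 15 of 42 of fatty acid synthesis, 29 of 95 of heat shock proteins and chaperones and 55 of 119 of ribosomal proteins fell in *hlr1*. Among the genes that rose were 28 of 123 of the cell cycle, 15 of 89 of tubulin and other cytoskeletal proteins and 5 of 21 antenna genes. By edgeR's quasi-likelihood test, 982 genes were higher after 6 h, which is 10.4% of the genes tested, and 1144 were lower, 12.1% (adjusted p under 0.05 and a change over 2-fold). Of these, 580 rose and 516 fell over 4-fold. In bulk libraries, less of a transcript in every cell and fewer cells that hold it cannot be told apart. The genes called lower took 46.9 to 48.6% of all counts in the 1 h libraries and 14.0 to 14.5% in the 6 h libraries. Those called higher took 4.15 to 4.39% at 1 h and 19.6 to 20.2% at 6 h. The groups did not overlap in 60.8% of the genes tested, 3692 with 6 h above and 2048 with 6 h below. All 982 genes called higher and all 1144 called lower were among these. Groups that stand apart are thus no further support for a call.

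The scaling sets where 0 lies. With TMM factors, the median log2 fold change of all genes was 0.33, and list medians below are also given relative to it. Scaled to library totals this median was 0.67, and 1401 genes were higher and 798 lower (63.7% of the calls higher, against 46.2% with TMM). The count of higher genes also rested on single libraries. When replicate a, b or c at 1 h was left out it was 961, 1467 or 1919, and when replicate a, b or c at 6 h was left out 412, 425 or 444. The count of lower genes was 1311, 1559 or 1266 in the first case and 828, 834 or 867 in the second. Of the 982 higher genes, 307 had a count of 0 in at least 1 of the 1 h libraries (264 in a, 297 in b and 90 in c), and 90 of them in all 3. The part of these empty 1 h values in the calls was not tested beyond leaving out each library. The counts of gene lists move in the same way, and where 1 library moves such a count by over 1.5 times its range over the 6 fits without 1 library stands in brackets after it. For higher genes the lowest value came from a fit without a 6 h library in every bracket and the highest from a fit without 1 h replicate b or c.

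**Figure D1:**
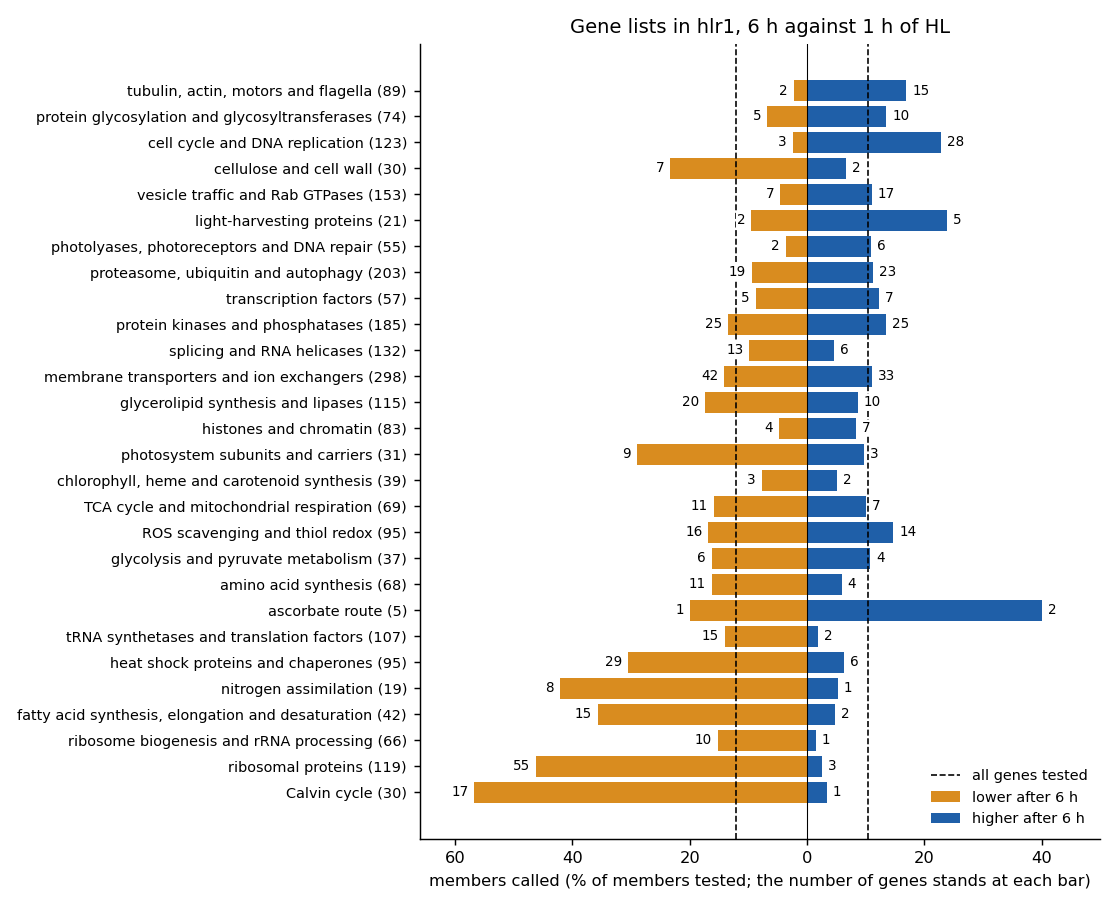
Share of the members of each gene list called lower (orange, to the left) or higher (blue, to the right) in *hlr1* after 6 h against 1 h of HL, in percent of the members tested, which stand in parentheses. Numbers at the bars count genes, dashed lines mark the shares over all genes tested (12.1% lower, 10.4% higher), and lists are ordered by their median log2 fold change, lowest at the bottom, where the Calvin cycle has 17 of 30 members lower.

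Of the light-harvesting genes, 2 fell steeply and most of the others were somewhat higher. The steepest fall was that of *g9917*, an LHC gene among the most abundant transcripts of the cell at 1 h. Its levels were 9434, 7178 and 8579 CPM in 1 h replicates a, b and c and 580, 612 and 504 CPM at 6 h. Every 1 h library lay far above every 6 h library, with a log2 fold change of -3.90 (SE, the standard error, of 0.14 and an edgeR adjusted p = 2.86e-05). Its mean level in the dark was 564 CPM, on a scale set over the 15 *hlr1* libraries, so of the early samplings it was high at 1 h only. The gene model lists a fasciclin domain as its Pfam match beside the LHC description. A second LHC gene, *g6857*, fell from 764, 746 and 755 CPM to 101, 121 and 89.3 CPM. Here the 1 h replicates were nearly equal, and the log2 fold change was -2.87 (SE 0.14, edgeR adjusted p = 5.47e-05).

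Of 21 LHC genes tested, 5 were higher and 2 lower (median log2 fold change 0.635, and 0.31 relative to all genes). By library totals 10 were higher and 2 lower. These 21 were matched by words in descriptions and leave out the LHCX gene *g1546*, which has no informative description. The highest change was that of *g1003*, with 123, 163 and 153 CPM at 1 h and 559, 520 and 559 CPM at 6 h. The groups did not overlap, at a log2 fold change of 1.89 (SE 0.14, edgeR adjusted p = 0.000192). The other higher genes were *g7398* (log2 1.37), *g240* (1.20), *g3077* (1.10) and *g2628* (1.01). The last of them lay at the threshold of 2-fold, and *g3077* and *g2628* lost their call without 1 h replicate a (0.91 and 0.93) or b (0.96 and 0.90). *g2628* lost it also without 1 h replicate c (0.96) or 6 h replicate a (0.99). Without 1 h replicate a or b, 3 LHC genes were called higher.

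Most of these 21 genes had differences of less than 2-fold with little spread. Without regard to the fold, 15 of the 21 had an adjusted p under 0.05 with a positive change, where 1148 of 9440 genes did, and 18 had a positive change at all, as did 5583 of the 9440. Among the LHCR genes, *g6113* had 1414, 1720 and 1625 CPM at 1 h and 2958, 2973 and 2764 CPM at 6 h. Its groups did not overlap, and the log2 fold change of 0.86 (SE 0.10, edgeR adjusted p = 0.00139) stayed under the fold of a call, which it passed by library totals (1.20). *g5629* and *g9713* had 0.60 and 0.53 (edgeR adjusted p = 0.00574 and 0.00434). *g6882* overlapped between the times (log2 change 0.05, edgeR adjusted p = 0.912). It had -0.07 with limma voom, and -0.25, -0.06 and -0.09 without 1 h replicate b, 1 h replicate c and 6 h replicate c.

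The LHCX genes did not pass either. *g903* had 2090, 1741 and 2355 CPM at 1 h and 2511, 2551 and 2065 CPM at 6 h, which overlap (log2 change 0.20, SE 0.14, edgeR adjusted p = 0.348, and -0.04 without 1 h replicate b). *g1546* had 479, 259.5 and 332 CPM, then 679, 704 and 761 CPM. Its groups stood apart, and its log2 fold change of 0.997 (SE 0.22, edgeR adjusted p = 0.0189) ended just below the fold of a call, which it passed with DESeq2 (1.03), by library totals (1.34) and without 1 h replicate a (1.17).

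**Figure D2:**
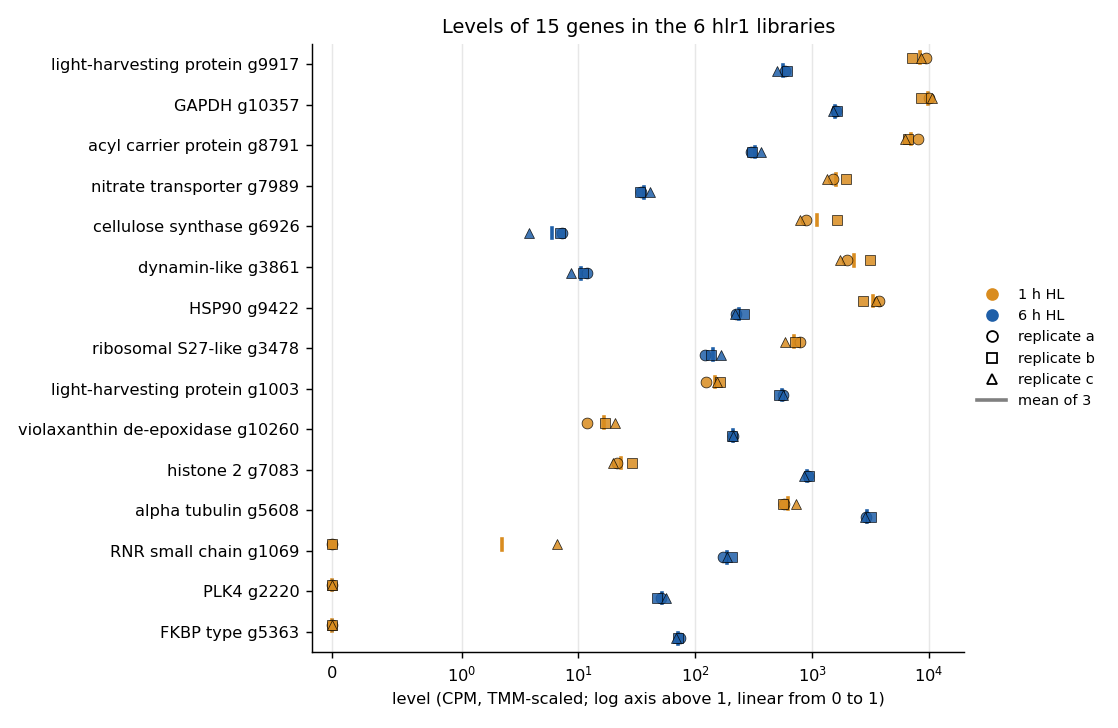
Level of 15 genes in each of the 6 *hlr1* libraries, in CPM with TMM factors (log axis above 1 and linear from 0 to 1), with 1 h of HL in orange, 6 h in blue, a symbol for each replicate and a bar at the mean of 3. Every gene drawn has all its 6 h libraries on the same side of its 1 h libraries, and *g2220* and *g5363* stand at 0 in all 1 h libraries.

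Around the antenna, the photoprotective and pigment genes moved singly. Violaxanthin de-epoxidase (*g10260*), the enzyme of the violaxanthin cycle, rose from 11.8, 17.0 and 20.7 CPM to 211, 205 and 210 CPM. The 6 h libraries were nearly equal and about an order of magnitude above the 1 h libraries (log2 change 3.65, SE 0.25, edgeR adjusted p = 0.000157). Subunit H of magnesium chelatase (*g7040*), which starts the chlorophyll branch of tetrapyrrole synthesis, rose from 408 ± 102 to 1140 ± 128 CPM (mean ± SD, n = 3; log2 1.48, edgeR adjusted p = 0.00241). Phytoene synthase (*g6239*), the entry to carotenoid synthesis, fell from 243 ± 57.2 to 104 ± 13.8 CPM (log2 change -1.23, edgeR adjusted p = 0.0066), a change under the fold of a call by library totals (-0.90). Of 39 genes of chlorophyll, heme and carotenoid synthesis, 2 were higher [2 to 5] and 3 lower [2 to 7, the highest without 1 h replicate b], shares under those of all genes. By library totals 3 were higher and 0 lower.

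Photosystem subunits and electron carriers had 3 of 31 members higher and 9 lower [6 to 10], a balance that turned to 8 higher and 4 lower by library totals (median relative to all genes -0.20 under both). Ferredoxin (*g9772*), which carries electrons from photosystem I, fell from 1259 ± 85.7 to 198 ± 11.4 CPM (log2 change -2.68, SE 0.10, edgeR adjusted p = 2.96e-05). The iron-sulfur subunit of the cytochrome b6-f complex (*g9470*) rose from 73.3, 15.3 and 13.6 CPM to 400, 394 and 346 CPM (log2 change 3.47, SE 0.69, edgeR adjusted p = 0.0122). The 1 h libraries differed several-fold among themselves, and replicate a lay above the others.

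Calvin cycle genes were largely lower. Of 30 tested, 17 were lower and 1 higher [1 to 2], with a median log2 fold change of -1.34 (-1.66 relative to all genes) and 13 lower and 1 higher by library totals. Over the 6 fits that leave out 1 library, 14 to 18 were lower. Glyceraldehyde-3-phosphate dehydrogenase (*g10357*), a kind of enzyme that the cycle shares with glycolysis, fell from 10030, 8591 and 10500 CPM to 1588, 1625 and 1509 CPM. Its log2 fold change was -2.63 (SE 0.10, edgeR adjusted p = 3e-05). Phosphoribulokinase (*g3073*), which renews the acceptor of carbon dioxide, fell from 2320, 2454 and 2736 CPM to 494, 488 and 456 CPM. The groups lay wide apart, at log2 -2.39 (SE 0.10, edgeR adjusted p = 3.38e-05). Phosphoglycerate kinase (*g6144*) had -3.05 and fructose-bisphosphate aldolase (*g1829*) -2.52, and both are kinds of enzyme that glycolysis shares with the cycle. The tables describe this aldolase as cytosolic, outside the plastid that holds the cycle. An NADP-dependent glyceraldehyde-3-phosphate dehydrogenase (*g1650*) also fell, from 6900 ± 265 to 1377 ± 30.7 CPM (log2 change -2.33, edgeR adjusted p = 2.62e-05). The list was matched by words in descriptions, which do not show whether each member serves the cycle. The member that rose was *g10356*, annotated like *g10357*, from 471 ± 39.8 to 1277 ± 85.5 CPM (log2 change 1.43, SE 0.11, edgeR adjusted p = 0.00022).

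This pair lies side by side. On scaffold 355, *g10356* spans bases 161396 to 168624 on the plus strand and *g10357* bases 168809 to 170411 on the minus strand, with 184 bases between them. Their changes were opposite, and no source used here says whether the counting used strand. On scaffold 43, *g1829* (854371 to 856218, plus strand) lies 35 bases from *g1830* (856254 to 858326, minus strand), a gene with a MOSC domain. There *g1830* stood at 0, 0 and 1.53 CPM at 1 h and at 114, 141 and 109 CPM at 6 h while *g1829* fell, and the log2 fold change of *g1830* was 7.72 (SE 1.11, edgeR adjusted p = 0.00338). Positions are those of the deposited tables, and no source used here names their genome build.

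In glycolysis and pyruvate metabolism, 6 of 37 genes (16.2%) were lower and 4 (10.8%) higher [4 to 7], beside 12.1 and 10.4% of all genes. Enolase (*g10003*) fell from 2658 ± 284 to 239.6 ± 14.8 CPM (log2 change -3.48, edgeR adjusted p = 2.62e-05) and pyruvate kinase (*g9175*) from 331 ± 33.2 to 26.7 ± 2.03 CPM (log2 change -3.64, edgeR adjusted p = 3.38e-05). These enzymes complete the path from triose phosphate to pyruvate. Pyruvate carboxylase (*g1120*), which makes oxaloacetate from pyruvate, rose from 15.4, 0 and 20.2 CPM to 499, 465 and 482 CPM (log2 change 5.32, SE 1.01, edgeR adjusted p = 0.01). Its 1 h replicate b held no count. In the list of the TCA cycle and respiration, 7 of 69 were higher [4 to 13] and 11 lower [9 to 17, the highest without 1 h replicate b]. These shares of 10.1 and 15.9% lie near those of all genes. Isocitrate lyase (*g8450*), of the glyoxylate cycle, rose (log2 change 2.47, edgeR adjusted p = 0.0101), and alternative oxidase (*g363*), which passes electrons to oxygen past the later respiratory complexes, fell (log2 change -2.80, edgeR adjusted p = 0.000233).

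Among the 42 genes that make, elongate or desaturate fatty acids, 15 were lower and 2 higher [1 to 4] (median -0.46, and -0.79 relative to all genes). By library totals 10 were lower and 4 higher. Acyl carrier protein (*g8791*), to which the growing chain is bound, had 7973, 6604 and 6197 CPM at 1 h and 298, 304 and 364 CPM at 6 h. With a log2 fold change of -4.43 (SE 0.15, edgeR adjusted p = 2.62e-05), its lowest 1 h library was far above every 6 h library. An elongase (*g5643*) fell from 916, 1207 and 910 CPM to 24.3, 24.1 and 35.8 CPM (log2 change -5.18, SE 0.24, edgeR adjusted p = 4.33e-05). A 3-oxoacyl synthase (*g8736*), of the class that adds the next carbon unit, fell from 1142, 1095 and 702 CPM to 50.3, 43.2 and 61.1 CPM (log2 change -4.26, edgeR adjusted p = 9.92e-05). Genes of glycerolipid synthesis and lipases were called in both directions (20 lower and 10 higher [3 to 19] of 115), with a median near that of all genes (-0.06 relative to it). An acyltransferase (*g6633*) fell from 67.8, 81.7 and 56.3 CPM to 0.41, 0.66 and 0.13 CPM (log2 change -7.35, SE 0.71, edgeR adjusted p = 0.000658).

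Among genes of nitrogen uptake and assimilation, 8 of 19 were lower and 1 higher [0 to 1] (median -0.40, and -0.73 relative to all genes). By library totals 6 were lower and 1 higher. The high-affinity nitrate transporter *g7989* had 1507, 1945 and 1331 CPM at 1 h and 34.5, 33.8 and 41.2 CPM at 6 h. The gap between the groups was many times their spread (log2 change -5.45, SE 0.20, edgeR adjusted p = 2.86e-05). Nitrate reductase (*g7988*), which lies 654 bases from it on the opposite strand of scaffold 271, fell from 391 ± 114 to 62.1 ± 3.37 CPM (log2 change -2.66, SE 0.23, edgeR adjusted p = 0.000443). Nitrite reductase (*g3438*), the next step to ammonium, had a log2 fold change of -2.55, and an ammonium transporter (*g7791*) one of -2.31 (edgeR adjusted p = 2.86e-05 and 0.000338). A urea symporter (*g6410*) fell from 352, 381 and 354 CPM to 27.4, 26.1 and 28.6 CPM (log2 change -3.73, edgeR adjusted p = 2.62e-05). In amino acid synthesis 11 of 68 genes were lower [7 to 14], 16.2% beside 12.1% of all genes, and 4 higher [2 to 8]. Ornithine cyclodeaminase (*g4068*), which forms proline, was among the lower (log2 change -2.88, edgeR adjusted p = 5.49e-05).

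Ribosomal protein genes had more members called lower than any other list. Of 119 tested 55 were lower and 3 higher [1 to 4], with a median of -0.98 (-1.31 relative to all genes). By library totals 31 were lower and 5 higher, and over the fits without 1 library 52 to 65 were lower. A ribosomal S27-like protein (*g3478*) had 783, 712 and 586 CPM at 1 h and 120, 136 and 165.5 CPM at 6 h (log2 change -2.31, SE 0.18, edgeR adjusted p = 0.000254). A 60S acidic ribosomal protein (*g9871*) fell from 849 ± 78.7 to 183 ± 19.9 CPM (log2 change -2.22, edgeR adjusted p = 9.58e-05). The groups stood apart in both, and these were the largest falls of the list among called genes of at least 20 CPM. In the other direction, *g6228*, described as a sigma 54 modulation protein of the ribosome, a class known in bacteria and chloroplasts to silence ribosomes, rose from 62.9, 138.5 and 49.9 CPM to 578, 637 and 525 CPM (log2 change 2.79, SE 0.40, edgeR adjusted p = 0.00326). Of 66 genes of ribosome biogenesis 10 fell [6 to 17, the highest without 1 h replicate a] and 1 rose [0 to 2]. Of 107 tRNA synthetase and translation factor genes 15 fell [11 to 28, the highest without 1 h replicate b] and 2 rose [0 to 5]. The genes that fell are 15.2 and 14.0% of these lists, near the 12.1% of all genes. Elongation factor 3 (*g8579*), which in fungi helps the ribosome through its cycle, fell from 2195 ± 358 to 509 ± 28.9 CPM (log2 change -2.11, edgeR adjusted p = 0.000151).

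Heat shock proteins and chaperones, which fold other proteins, had 29 of 95 members lower and 6 higher [4 to 11] (median -0.37, and -0.70 relative to all genes). By library totals 26 were lower and 10 higher at a median of -0.04. HSP90 (*g9422*) fell from 3744, 2736 and 3510 CPM to 224, 259 and 218 CPM. No library of one time came near those of the other (log2 change -3.84, SE 0.16, edgeR adjusted p = 3.38e-05). The HSP70 gene *g30* went from 1522 ± 334 to 149.5 ± 11.8 CPM (log2 change -3.35, edgeR adjusted p = 8.67e-05) and an HSP40 (*g3646*), a class that delivers clients to HSP70, from 2412 ± 179 to 254 ± 46.9 CPM (log2 change -3.25, edgeR adjusted p = 5.61e-05). A heat shock transcription factor (*g8128*) moved the other way, from a count of 0 in all 1 h libraries to 53.5, 51.0 and 44.2 CPM. Against a floor of 3 counts over the 1 h group it was at least 257-fold higher (edgeR adjusted p = 0.00207). Of 203 genes of the proteasome, ubiquitin and autophagy, 23 rose [11 to 35] and 19 fell, shares close to those of all genes.

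The cell cycle and DNA replication list had the largest share of members higher among lists of over 100 genes. Of 123 tested 28 rose and 3 fell [1 to 5] (median 1.02, and 0.69 relative to all genes). By library totals 36 rose and 2 fell. When replicate a, b or c at 6 h was left out, 9, 10 or 10 were called higher, and when replicate a, b or c at 1 h was left out, 26, 39 or 34. Polo-like kinase 4 (*g2220*), known in animals for centriole duplication, is counted in the list of kinases and not in this one. It had no count in any 1 h library and 51.3, 46.9 and 56.1 CPM at 6 h. Against the same floor it was at least 266-fold higher (edgeR adjusted p = 0.00195). Aurora kinase (*g1109*), a regulator of chromosome segregation, also went from 0 in all 1 h libraries to 33.6, 32.0 and 32.2 CPM, at least 169-fold (edgeR adjusted p = 0.00409). For both, the 6 h replicates lay within a few CPM of each other. The small chain of ribonucleotide reductase (*g1069*), which supplies deoxynucleotides, had 0, 0 and 6.62 CPM at 1 h and 172, 205 and 186 CPM at 6 h (log2 change 6.32, SE 1.29, edgeR adjusted p = 0.0137). With replicate a, b or c at 6 h left out it was no longer called (edgeR adjusted p = 0.0528, 0.0602 and 0.0566, at log2 values of 6.39, 6.27 and 6.34).

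Among chromatin and repair genes, a histone 2 gene (*g7083*) had 21.5, 28.8 and 19.7 CPM at 1 h and 916, 933 and 843 CPM at 6 h. All 6 h libraries lay far above the 1 h libraries, at a log2 fold change of 5.26 (SE 0.19, edgeR adjusted p = 2.62e-05). Histone H4 (*g8107*) moved the other way, from 193, 119.5 and 96.9 CPM to 49.6, 61.8 and 52.5 CPM (log2 change -1.33, SE 0.30, edgeR adjusted p = 0.0183). Its call was lost by library totals (-0.99) and without 6 h replicate a, b or c (edgeR adjusted p = 0.0818, 0.0587 and 0.0769). Its neighbour *g8108*, a histone 3 gene on the same strand, rose from 88.2 ± 26.6 to 210.3 ± 4.04 CPM (log2 change 1.25, edgeR adjusted p = 0.00823), a call lost without 1 h replicate a (1.04, edgeR adjusted p = 0.0596) or b (0.97). Over the list of histones and chromatin 7 of 83 rose [3 to 12] and 4 fell [1 to 8, the highest without 1 h replicate a], under the shares of all genes. The mismatch repair protein MSH6 (*g5143*) rose from 24.0, 9.83 and 12.9 CPM to 181, 193 and 174 CPM (log2 change 3.54, SE 0.37, edgeR adjusted p = 0.000845). RAD50 (*g1458*), which holds broken DNA ends, rose by log2 2.50 (edgeR adjusted p = 0.00595). In the list of photolyases, photoreceptors and DNA repair 6 of 55 rose [2 to 14], 10.9% beside 10.4% of all genes, and 2 fell [2 to 4]. Among the latter was an aureochrome-like gene (*g1656*), of a family of blue light receptors of heterokont algae, with 169.5, 77.1 and 106 CPM at 1 h and 21.4, 24.1 and 27.9 CPM at 6 h (log2 change -2.27, SE 0.35, edgeR adjusted p = 0.00455).

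Tubulin, actin, motor and flagellar genes had the highest median of the lists, 1.19 (0.86 relative to all genes), except without 1 h replicate b, where it was 0.93 and those of protein glycosylation and the cell cycle were 1.04 and 1.01. Of 89 tested 15 rose and 2 fell [0 to 5, the highest without 1 h replicate a]. The split by library totals was 19 and 0. With any 1 of the 6 h libraries left out 9 were called higher, and with replicate a, b or c at 1 h left out 17, 29 or 30. Alpha tubulin (*g5608*), a subunit of microtubules, had 571.5, 565 and 730.4 CPM at 1 h and 2904, 3154 and 2837 CPM at 6 h. The groups stood apart at log2 2.25 (SE 0.13, edgeR adjusted p = 8.94e-05). A myosin heavy chain (*g1246*), a motor on actin, rose from 7.49, 22.7 and 10.5 CPM to 141, 154 and 146 CPM (log2 change 3.43, SE 0.45, edgeR adjusted p = 0.00226). The actin gene *g3056* overlapped, with 69.8, 14.4 and 47.2 CPM at 1 h and 76.5, 72.3 and 69.2 CPM at 6 h (log2 change 0.73, SE 0.54, edgeR adjusted p = 0.37).

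Membrane and wall genes held some of the deepest falls. The dynamin-like gene *g3861*, of a family of GTPases that pinch membranes, had 1983, 3094 and 1725 CPM at 1 h and 11.9, 10.9 and 8.56 CPM at 6 h. Its neighbour *g3860*, with the same description and 5634 bases away on the opposite strand of scaffold 104, had 984, 1369 and 1092 CPM and then 5.25, 7.34 and 4.01 CPM. The groups lay far apart in both (log2 changes -7.77 and -7.70, SEs 0.32 and 0.29, edgeR adjusted p = 3.48e-05 and 2.96e-05). Reads shared between alike copies could be counted for either, so their separate levels are uncertain. Cellulose synthase (*g6926*), which spins the glucan of the wall, fell from 887, 1619 and 792 CPM to 7.18, 6.94 and 3.74 CPM (log2 change -7.53, SE 0.45, edgeR adjusted p = 9.75e-05). A glycoside hydrolase of family 5 (*g4700*), a class that holds cellulases, fell from 288 ± 56.0 to 8.81 ± 1.05 CPM (log2 change -5.04, edgeR adjusted p = 3.85e-05). Over the list of cellulose and wall genes 7 of 30 fell [4 to 7, the lowest without 6 h replicate b] and 2 rose [0 to 7], while the median was 0.68, of the opposite sign (5 rose and 4 fell by library totals).

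Other large falls had roles in lipids, transport and gene control. An ABC transporter of subfamily G (*g8091*) fell from 311.5, 373.5 and 287 CPM to 3.87, 2.49 and 0.53 CPM (log2 change -7.14, edgeR adjusted p = 0.000348). The zinc finger gene *g5012*, described as transcription factor MTF-1, which in animals answers to metals, fell from 335, 643 and 348 CPM to 1.93, 2.36 and 1.87 CPM (log2 change -7.74, SE 0.39, edgeR adjusted p = 5.61e-05). A hydroxymethylglutaryl-CoA synthase (*g249*), known for the mevalonate route, kept 3 counts over the 6 h group. The ratio of 1 h to 6 h was 585, with a 95% counting interval of 200 to 2840 that leaves out the spread between replicates (edgeR adjusted p = 0.000691). Of 298 transporter genes 33 rose [17 to 54] and 42 fell, 11.1 and 14.1% beside 10.4 and 12.1% of all genes. Of 153 genes of vesicle traffic 17 rose [6 to 34] and 7 fell [6 to 12], 11.1 and 4.58%. An R-SNARE of the VAMP72 family (*g3340*), which helps vesicles fuse, fell from 124 ± 32.6 to 1.22 ± 0.52 CPM (log2 change -6.66, edgeR adjusted p = 0.000183).

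The rises of largest fold began at or near a count of 0. The FKBP-type prolyl isomerase *g5363*, a protein that assists folding, was at 0 in every 1 h library and at 74.5, 71.3 and 67.8 CPM at 6 h, at least 369-fold higher (edgeR adjusted p = 0.000942). Over the 90 genes of this kind the bound ran from 9.74 to 369, with a median of 40-fold. A cysteine protease (*g2862*) had 1 count over the 1 h group and 118, 160 and 125 CPM at 6 h, a ratio of 2100 with a counting interval of 376 to 82800 (edgeR adjusted p = 9.75e-05). VPS13 (*g5740*), known in yeast and animals for moving lipids between membranes, had 0, 0 and 0.68 CPM and then 92.9, 94.8 and 90.9 CPM (log2 change 8.44, SE 1.03, edgeR adjusted p = 0.00174). In these genes any 1 h signal came from replicate c, the library with the most genes detected.

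A few genes of sugar nucleotides and redox metabolism rose as well. GDP-mannose epimerase (*g2556*) and phosphomannomutase (*g868*), of the route from mannose to ascorbate in plants, rose from 36.1 ± 39.4 to 557 ± 26.1 CPM and from 27.9 ± 10.5 to 136 ± 4.82 CPM (log2 3.95 and 2.28, edgeR adjusted p = 0.0123 and 0.00287). The 1 h value of *g2556* was 81.5 CPM in replicate b and 16.2 and 10.5 CPM in a and c, still below every 6 h value. In the short list of the ascorbate route 2 of 5 rose and 1 fell [0 to 1]. The gene *g10376* is not in this list, since its description is that of a D-arabinose 1-dehydrogenase-like protein. The study names it as L-galactose dehydrogenase, a later enzyme of that route. It had 0, 30.6 and 6.62 CPM at 1 h and 17.1, 15.7 and 21.9 CPM at 6 h. The groups overlapped and it was not called (log2 change 0.55, SE 1.59, edgeR adjusted p = 0.824). Of 74 genes of protein glycosylation 10 rose [4 to 19] and 5 fell [3 to 9, the highest without 1 h replicate b]. Of 95 genes of ROS scavenging and thiol redox 14 rose [8 to 20] and 16 fell. The shares that rose and fell were 13.5 and 6.76% for glycosylation and 14.7 and 16.8% for redox, beside 10.4 and 12.1% of all genes. A methionine sulfoxide reductase (*g9056*), which repairs oxidised methionine, fell from 842 ± 241.5 to 78.1 ± 6.63 CPM (log2 change -3.44, edgeR adjusted p = 0.000183). An omega-like glutathione S-transferase (*g9049*) rose from 25.6 ± 12.5 to 213 ± 14.9 CPM (log2 change 3.05, edgeR adjusted p = 0.00169). Among 57 transcription factor genes 7 rose [4 to 12] and 5 fell [3 to 8], which is 12.3 and 8.77%. Among 185 kinase and phosphatase genes 25 rose [13 to 40] and 25 fell [16 to 32], 13.5% each way. These shares are near those of all genes. Of 132 splicing and RNA helicase genes 6 rose [3 to 19] and 13 fell [6 to 20, the highest without 1 h replicate b], under the shares of all genes.

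**Figure D3:**
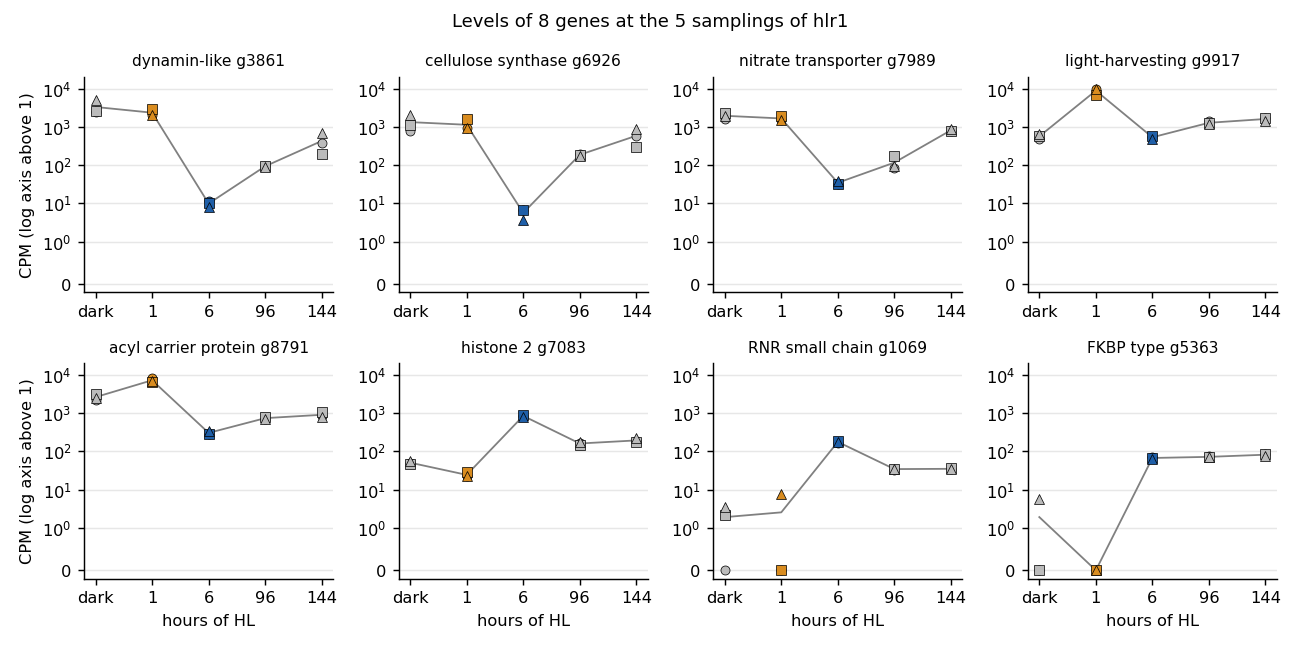
Level of 8 genes in all 15 *hlr1* libraries, in CPM scaled over those libraries (log axis above 1), at the dark sampling and after 1, 6, 96 and 144 h of HL, spaced evenly and not to time. Points are replicates (1 h orange, 6 h blue, others grey), lines join the means, and the 5 genes that fell from 1 h to 6 h stand higher again at 96 and 144 h, as *g3861* with 93.2 and 428 CPM.

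The levels at the other samplings of *hlr1* place the 2 times. Such values share the 1 h and 6 h libraries with the comparison above and carry no test. The dynamin-like *g3861* had means of 3314 CPM in the dark, 2347 at 1 h, 9.85 at 6 h, 93.2 at 96 h and 428 at 144 h. Cellulose synthase *g6926* had 1332, 1134, 5.62, 186 and 586 CPM, and the nitrate transporter *g7989* 1950, 1660, 34.5, 116 and 816 CPM in the same order. In these 3 genes 1 h was nearer to the dark than to 6 h, and 6 h was the lowest sampling. Acyl carrier protein *g8791* had 2626, 7260, 304, 740 and 907 CPM, highest at 1 h. Histone *g7083* had 50.7, 24.3, 847, 161 and 194 CPM and ribonucleotide reductase *g1069* 1.90, 2.54, 177, 34.4 and 35.0 CPM, both highest at 6 h. FKBP gene *g5363* stayed at its 6 h level, with 1.91, 0, 67.2, 71.9 and 81.9 CPM. Alpha tubulin *g5608* was at 59.7 CPM in the dark and 660 at 1 h, so its rise had begun before the hours compared here. It then had 2799, 1076 and 921 CPM.

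*HLR1* itself had counts in every *hlr1* library. Its gene model, *g4928*, spans bases 243338 to 249749 of scaffold 145 (6412 bases), is described as a light-harvesting protein and lists an ArfGap domain as its Pfam match. The tables do not show where in it the reads lie. Its levels were 753, 935 and 624 CPM at 1 h and 509, 531 and 522 CPM at 6 h. With TMM factors each 6 h library was below each 1 h library, at a log2 fold change of -0.57 (SE 0.16, edgeR adjusted p = 0.0384), under the fold of a call. Scaled to library totals the levels were 664, 859.7 and 546 CPM at 1 h and 573, 590.0 and 588 CPM at 6 h, which overlap, and the change was -0.24 (edgeR adjusted p = 0.319). The edgeR adjusted p was 0.0595 with median-of-ratios size factors and 0.138, 0.121 and 0.122 when replicate a, b or c at 6 h was left out. Across all 30 libraries on 1 scale, *hlr1* had 479.6 to 498 CPM at 6 h and WT 1430 to 1555 CPM, and at 1 h 716 to 909 and 907 to 960 CPM. The strains overlapped at 1 h and not at 6 h. In the dark the ranges were 546 to 1104 CPM in *hlr1* and 1543 to 2018 CPM in WT. The gene next to it, *g4929* (ribulose-phosphate 3-epimerase, of the Calvin cycle), begins 29 bases on, lies on the opposite strand and fell by 2.45 on the log2 scale. With the use of strand in counting unknown, reads of this neighbour could be among those counted for *HLR1*.

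WT was sampled at the same times, and its change from 1 h to 6 h is given beside that of *hlr1*. In WT, 2007 genes were higher (21.1% of 9497) and 1684 lower (17.7%), with a median of 0.07. The larger count in WT does not show a larger change. Of the 7995 genes counted for zeros above, 0.838 to 3.54% stood at 0 in the WT libraries of 1 h. The WT log2 fold changes were -3.66 for *g9917*, -2.31 for *g10357*, -4.06 for *g8791*, -4.69 for *g7989*, -4.07 for *g9422*, -6.91 for *g3861*, 4.59 for *g7083* and 3.16 for *g10260*. Each had the direction of *hlr1*. In WT 16 of 30 Calvin cycle genes and 61 of 118 ribosomal protein genes were lower, and 46 of 124 cell cycle genes were higher.

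The difference between the strains was tested gene by gene as the interaction of strain and time over 12 libraries. edgeR called 2 of 9650 genes (0.0207%), with 454 at an unadjusted p under 0.05, and DESeq2 called 16. The first was *HLR1* (*g4928*), which with TMM factors was lower at 6 h in *hlr1* and went in WT from 879, 902 and 819 CPM to 1665, 1636 and 1526 CPM. The change in *hlr1* minus that in WT was -1.46 on the log2 scale (SE 0.18, edgeR adjusted p = 0.0235). The second was *g714*, which has no informative description and a Rhamno_transf Pfam match. In *hlr1* it had 0, 0 and 0.34 CPM at 1 h and 54.2, 50.9 and 60.4 CPM at 6 h, and in WT 13.3, 30.1 and 32.7 CPM and then 58.6, 73.9 and 73.7 CPM. Its interaction was 7.13 (SE 0.89, edgeR adjusted p = 0.0235). The count was decided by single libraries. It was 609 without 1 h *hlr1* replicate c, 10 without 1 h WT replicate c, 1 without 1 h *hlr1* replicate a, and 0 without 1 h WT replicate b or any 1 of the 6 h libraries.

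**Figure D4:**
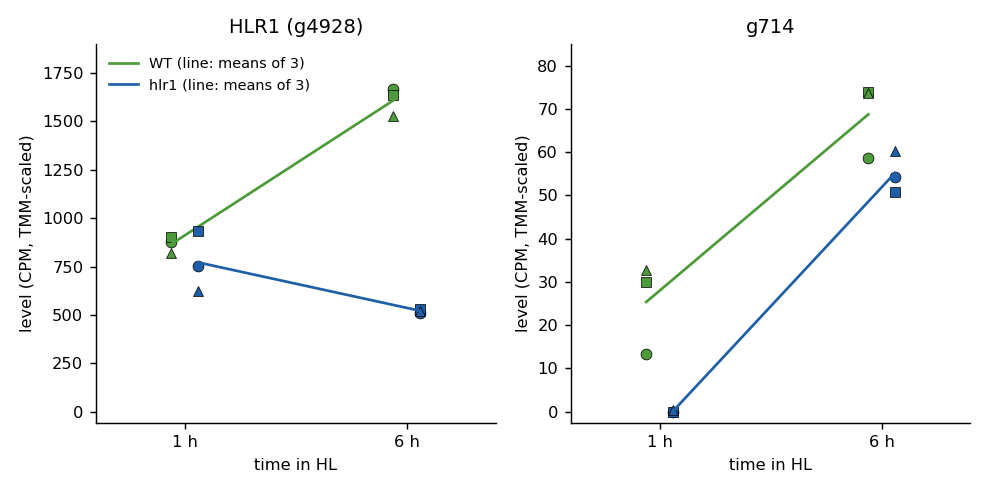
Level of *HLR1* and of *g714* at 1 h and 6 h of HL in WT (green) and *hlr1* (blue), in CPM with TMM factors over these 12 libraries. Symbols are replicates and lines join the means of 3, and *HLR1* lies lower at 6 h in *hlr1* (510 to 532 CPM) and higher in WT (1526 to 1665 CPM).

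Nearly all LHC genes had an interaction of the same sign, most of them small. In 20 of the 21 listed LHC genes the change from 1 h to 6 h was lower in *hlr1* than in WT, where 44.7% of all genes tested had that sign. The LHCX gene *g1546*, outside the list, had an interaction of -0.07. The median interaction was -0.33, or -0.33 over the 20 genes other than *HLR1*, against 0.07 over all genes. An unadjusted edgeR p under 0.05 was found for 9 LHC genes, 42.9% of the list against 4.7% of all genes, and *HLR1* alone passed the adjusted threshold. For *g6113* the log2 fold change was 0.86 in *hlr1* and 1.09 in WT, and for *g5629* 0.60 and 0.80. Under the other scalings, tests and filters 20 or 21 LHC genes had this sign, and without single libraries 19 to 21. By library totals the median was -0.28 against 0.13 for all genes, and without 1 h *hlr1* replicate c it was -0.23 against 0.23. Other lists leaned the same way, with 25 of 30 Calvin cycle (83.3%), 22 of 31 photosystem and carrier (71.0%) and 80 of 119 ribosomal protein genes (67.2%). An unadjusted edgeR p under 0.05 was found for 13.3% of the Calvin cycle, 0% of the photosystem and 5.04% of the ribosomal protein genes. Of 95 chaperone genes 29 had this sign (30.5%). Genes of 1 family are not independent of each other, and no test of a group was made.

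**Figure D5:**
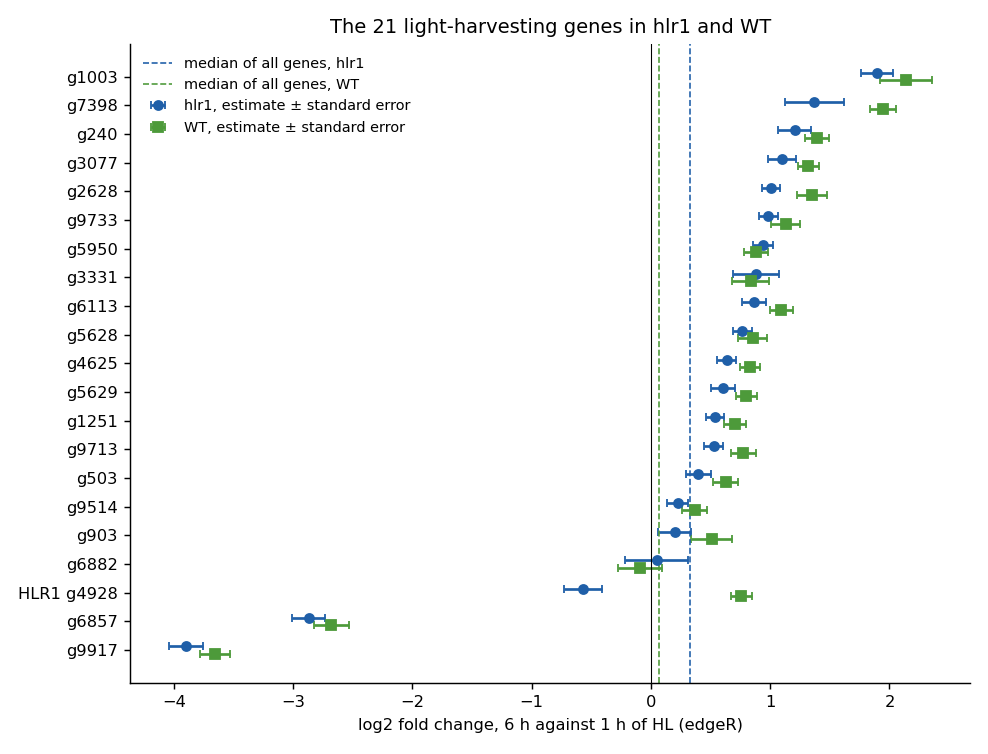
Log2 fold change from 1 h to 6 h of HL of the 21 LHC genes in *hlr1* (blue circles) and WT (green squares), with bars for the standard error of the edgeR fit of each strain, ordered by the value in *hlr1*. Dashed lines mark the median of all genes (0.33 in *hlr1*, 0.07 in WT), and *HLR1* (*g4928*) has -0.57 in *hlr1* and 0.76 in WT.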

How the data were processed

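The members, gene lists and tests were chosen with earlier results of these data known. The submitters' processing notes name TopHat2 2.0.12, and the authors deposited 1 table per time with raw read counts per gene and library. Columns with the authors' normalized means and strain comparisons were left aside. For the counting tool, strand setting and genome build: not given in the sources used here.

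From the counts, edgeR 4.0.16 (R 4.3.3) kept genes by filterByExpr (minimum count 10), computed TMM factors and ran its quasi-likelihood test on the 6 libraries. A gene is called at a change over 2-fold, as in the study, with p adjusted by Benjamini and Hochberg under 0.05. Levels are CPM with TMM factors. Standard errors are the log2 fold change over the root of F. DESeq2 1.42.0, limma voom 3.58.1, other scalings and filters, and leaving out each library served as alternatives. The test was also run on counts simulated with the same spread per gene at both times. That run cannot check it for the unequal spread and empty values of these libraries. Counting intervals and floors cover counting error only.

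The 29 lists with a match (of 30) came from words in the authors' descriptions, which 6361 genes have. Genes are named by rule: those the study names, the 12 largest rises and falls with a description, at least 50 CPM in the higher group and groups that do not overlap, the 3 largest called changes per list (at least 20 CPM), and genes called in the interaction. Not all of them are given in the text, and of those the study names *g7046* and *g9910* are left out. A further 15 were named after their values were seen (*g3073*, *g10356*, *g1650*, *g4929*, *g3438*, *g7791*, *g5608*, *g1656*, *g8107*, *g8108*, *g2628*, *g240*, *g3077* and *g7398* in the text).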

Additional observations from a re-analysis of the deposited data

Results flagged for a closer look

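The change from 1 h to 6 h differed between the strains by the test of the interaction in 2 genes. For *HLR1* (*g4928*) the change in *hlr1* minus that in WT was -1.46 on the log2 scale, with TMM factors lower at 6 h in 3 of 3 *hlr1* libraries and higher in 3 of 3 WT libraries (edgeR adjusted p = 0.0235). By library totals 1 h replicate c of *hlr1* lay below all 3 of the 6 h libraries, and the interaction was -1.41 (edgeR adjusted p = 0.0634). For *g714* it was 7.13 (edgeR adjusted p = 0.0235), with higher values at 6 h in every library of either strain and 2 counts in the whole 1 h group of *hlr1*.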

How the results depend on the processing

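Against 2126 genes called (982 higher), DESeq2 gave 1776 higher, limma voom 1822, a single fit of all 4 groups 1613 and a 4-fold threshold 1096 genes (580 higher, 516 lower). Leaving out 1 library gave 1240 to 3185 genes (412 to 1919 higher). Without 6 h replicate a, b or c it was 1240, 1259 or 1311, and without 1 h replicate a, b or c 2272, 3026 or 3185. The same letter on replicates did not go with shared deviations (r = -0.00887, -0.0259 and -0.0621 for a, b and c). The 1 h deviations hold the wide spread and empty values of that time, so this cannot exclude a pairing by letter. With the letter as a replicate block 1453 genes were called, 583 of them higher. List members called were 597, and 389 to 823 without single libraries. The interaction, with 2 genes, gave 16 by DESeq2, 1 by limma voom, 1 by library totals, 0 with the block and 0 to 609 without single libraries. *HLR1* in it had -1.41 by library totals and -1.45 with the block, neither called, and -1.5 to -1.3 without single libraries. For *g714* the values were 6.43 by limma voom and 7.17 with the block, not called, and 6.64 to 10.1 without single libraries. *g6882* turned to -0.0686 with limma voom and had -0.246 to 0.241 without single libraries, *g903* -0.0384 to 0.293 and *g10376*, with 0.55 in the main comparison, 3.22 by limma voom and 2.13 with the block, -0.0541 to 2.27, not called in any of these. Of 119 named genes called, 0 turned and 99 to 119 kept their call over the 9 settings that keep all libraries. Without 6 h replicate a, b or c 97, 97 or 98 kept it, and without 1 h replicate a, b or c 113, 114 or 114. Most such losses are not marked at the single genes above. The limits are the spread and empty values of the 1 h libraries and the scaling, which sets the split of higher and lower. A further limit is that there were 3 libraries per time, from 1 mutant line. Among called genes, a 1 h count of 0 was found only in those higher at 6 h. Its part in the calls was not tested beyond leaving out each library.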
